A study of Canis lupus familiaris with 6 samples.

Results

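Genes named for the motile cilium and its axoneme were followed in MDCKII, an established epithelial line from dog kidney, grown flat or as cysts. The set held every probe set whose single gene symbol begins with DNAH, DNAI, DNAAF, CFAP, DRC, RSPH, SPAG, TEKT or RFX and a number, together with FOXJ1, SPEF2 and CCNO. HYDIN and MCIDAS belong to the same rule but were matched by no annotated probe set and were not analysed here. This gave 202 of 42924 probe sets, which stand for 84 of 15115 named genes. The choice rests on names alone, so it also holds genes with work outside the axoneme, such as SPAG9, a scaffold for JNK kinases and motor proteins, SPAG5, a mitotic spindle protein, and RFX5, a factor for MHC class II genes.

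The 2D group was 3 arrays of cells grown as a polarized monolayer on plastic in 60 mm dishes. The 3D group was 3 arrays of cells plated on a thin Matrigel layer (100 µl per dish) under medium with 2% Matrigel, where they form cysts. Both groups were the same line in MEM, and RNA was taken 36 h after plating. The labels call the replicates biological and name no treatment other than the matrix, no genotype and no clone. On the 4 arrays of replicates 2 and 3 the median levels over all probe sets were 7.06 to 7.08, on a log2 scale. The replicate 1 arrays lay on another scale (medians 5.42 in 2D and 5.26 in 3D), so the test compared 2 arrays with 2, and the replicate 1 difference is given beside it as a single untested value. All 8 kidney epithelial markers had mean levels above the median of all probe sets on the arrays of replicates 2 and 3. EPCAM, KRT8 and KRT18 lay between 13.13 and 14.01 on these 4 arrays. Mean levels above that median were also found for 2 of 7 fibroblast, 1 of 4 endothelial and 1 of 4 leukocyte markers. Levels alone therefore do not settle which cell types were present. Of these fibroblast, endothelial and leukocyte markers, 0 passed limma's threshold (0, 0 and 2 at an unadjusted p under 0.05). Poly-A controls spiked into the RNA were brightest on 3D replicate 2 (mean level 9.83, against 8.81 to 8.98 on the other 3 arrays), and the GAPDH control's 3′ minus 5′ level was 0.31 and 0.40 in 3D against 0.20 and 0.16 in 2D, while that of actin was 0.57 and 0.76 in 3D against 0.71 and 0.89 in 2D. On the replicate 1 arrays, on their own scale, the 3′ minus 5′ level of GAPDH was 1.67 in 2D and 1.47 in 3D. That of actin was 2.17 and 2.90. These 2 arrays correlated with the other 4 at 0.861 to 0.872, against 0.982 to 0.997 among those 4. The part of these differences in the results was not tested.

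An axoneme is the microtubule core of a cilium. In motile cilia it carries dynein arms, which are the motors, and radial spokes, a central pair and nexin-dynein links, which time them. MDCK cells are known for a single primary cilium on the apical face, whose axoneme lacks dynein arms and does not beat. FOXJ1 switches on the motile program, with RFX factors serving motile and primary cilia alike, and MCIDAS and CCNO drive the many centrioles of multiciliated cells.

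Cysts had more transcript of a few axoneme genes. None of the 52 probe sets of axonemal dynein heavy chains or the 7 of intermediate chains passed the test, against 6.61% of all probe sets. Of the 52 heavy chain probe sets, 35 had a mean level below the lower quartile of all probe sets, a range where 0.821% passed. The nexin-dynein gene DRC1 rose on all 3 of its probe sets. CFAP126, CFAP300, CFAP206, CFAP20DC, CFAP70, CFAP410, DRC3, RSPH3 and the regulator RFX3 rose on 1 or more probe sets. CFAP251 fell on 1 of 3 probe sets, CFAP298 on 1 of 5 and SPAG9 on 2 of 4. In replicate 1 the probe sets that fell kept that sign for SPAG9 alone. In all, 16 member probe sets were higher in 3D (7.92%, against 3.65% of all probe sets) and 4 were lower (1.98%, against 2.96%), at an adjusted p under 0.05 from limma with Benjamini-Hochberg adjustment over all probe sets. With each gene standing by its probe set of highest mean level, 8 of 84 genes were higher (9.52%, against 4.17% of all genes), 2 were lower (2.38%, against 3.12%) and 74 did not pass. The median log2 fold change of the 202 probe sets was 0.015, beside -0.005 over all probe sets. At an unadjusted p under 0.05 there were 45 members (22.3%) and 23.5% of all probe sets. The 2D and 3D levels did not overlap, with 3D higher, for 57 members (25.1% of all probe sets did so) and, with 3D lower, for 42 members (26.7% of all did so). Bulk RNA cannot separate a change in the number of cells of a type from a change in RNA per cell.

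**Figure D1:**
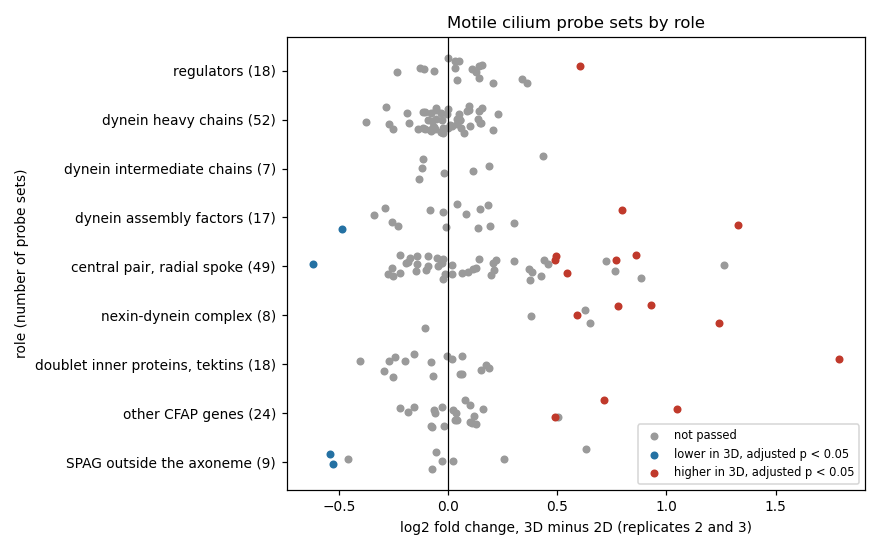
Log2 fold change (3D minus 2D, replicates 2 and 3) of the 202 probe sets, 1 point each, in rows by role, with the number of probe sets in brackets; vertical scatter within a row has no meaning. The 52 dynein heavy chain points lie between -0.375 and 0.23, while 4 of the 8 nexin-dynein points passed and reach 1.24.

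Among the 9 regulators, RFX3 alone passed (11.1%, against 4.17% of all genes higher in 3D). RFX3, a winged-helix factor for ciliary genes, had levels of 7.13 and 7.19 in 2D and 7.91 and 7.62 in 3D on its probe set of highest mean, and was higher in 3D by 0.605 on the log2 scale (limma adjusted p = 0.0493, SE 0.129, n = 2 per group). The groups did not overlap, and the adjusted p lay just inside the threshold. It was lost with median centring (limma adjusted p = 0.0565), with trend and robust priors (0.0519) and with the mean of both RFX3 probe sets (0.358, limma adjusted p = 0.101), and the other RFX3 probe set gave 0.11. The replicate 1 differences of the 2 probe sets were 1.66 and -0.95.

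FOXJ1 did not pass. Its levels were 5.75 and 5.66 in 2D and 5.97 and 6.16 in 3D, without overlap, and the log2 fold change was 0.36 (95% interval 0.082 to 0.638, limma adjusted p = 0.124). FOXJ1 differed by -0.29 in replicate 1. CCNO, the cyclin-like gene of centriole amplification, had overlapping groups at 8.13 and 7.99 in 2D and 7.89 and 8.10 in 3D (log2 fold change -0.065, 95% interval -0.359 to 0.229). RFX2 gave 0.205 (limma adjusted p = 0.277), RFX1 0.05 (0.870) and RFX5 0.34 (0.0973). The remaining regulators, RFX4, RFX6 and RFX7, lay between -0.235 and 0.14 over 10 probe sets, and 0 of them passed (0 at an unadjusted p under 0.05).

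The axonemal dynein heavy chains are the ATP-driven motors. All 13 genes on the list were measured, by 52 probe sets. Of these, 0 passed limma's test in either direction (6.61% of all probe sets did), with 1 at an unadjusted p under 0.05. Their log2 fold changes ran from -0.375 to 0.23, with a median of -0.027, and their 95% intervals together covered -0.682 to 0.528. A rise of 1 in the measured log2 level, a doubling, lay outside every one of these intervals. For the 35 probe sets below the lower quartile in level this does not exclude a doubled transcript, as changes near background are understated. DNAH5 and DNAH9 are outer arm motors, known from primary ciliary dyskinesia and respiratory cilia. DNAH5 gave 0.00 and 0.085 on its 2 probe sets, and DNAH9 gave -0.18, 0.06 and -0.035 on 3. DNAH11, another outer arm motor, had the highest value of the family, 0.23, from 7.13 and 7.11 in 2D to 7.22 and 7.48 in 3D (limma adjusted p = 0.328). The lowest belonged to DNAH17, a motor known from sperm flagella, at 6.98 and 6.90 in 2D and 6.52 and 6.61 in 3D (limma adjusted p = 0.0895). DNAH17 has 7 probe sets, all with values at or below -0.03 and none past the threshold. By the probe set that stands for each gene, DNAH14 (-0.285) was lowest, followed by DNAH17 (-0.27) and DNAH8 (-0.255).

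Many of these probe sets were dim. Of the 52 heavy chain probe sets, 35 had a mean level below the lower quartile of all probe sets (5.66), against 87 of all 202 members (43.1%). The table carries no detection calls, so whether these transcripts were present cannot be told, and a change of a transcript near background is understated at such levels. Levels of different probe sets do not compare between genes. None of the 87 dim members passed limma's test, with 8 at an unadjusted p under 0.05, and 0.821% of the dim probe sets of the whole array passed. The 17 heavy chain probe sets at or above the lower quartile, among them those of highest mean for DNAH1, DNAH2, DNAH8, DNAH9, DNAH10, DNAH11, DNAH14 and DNAH17, did not pass either.

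**Figure D2:**
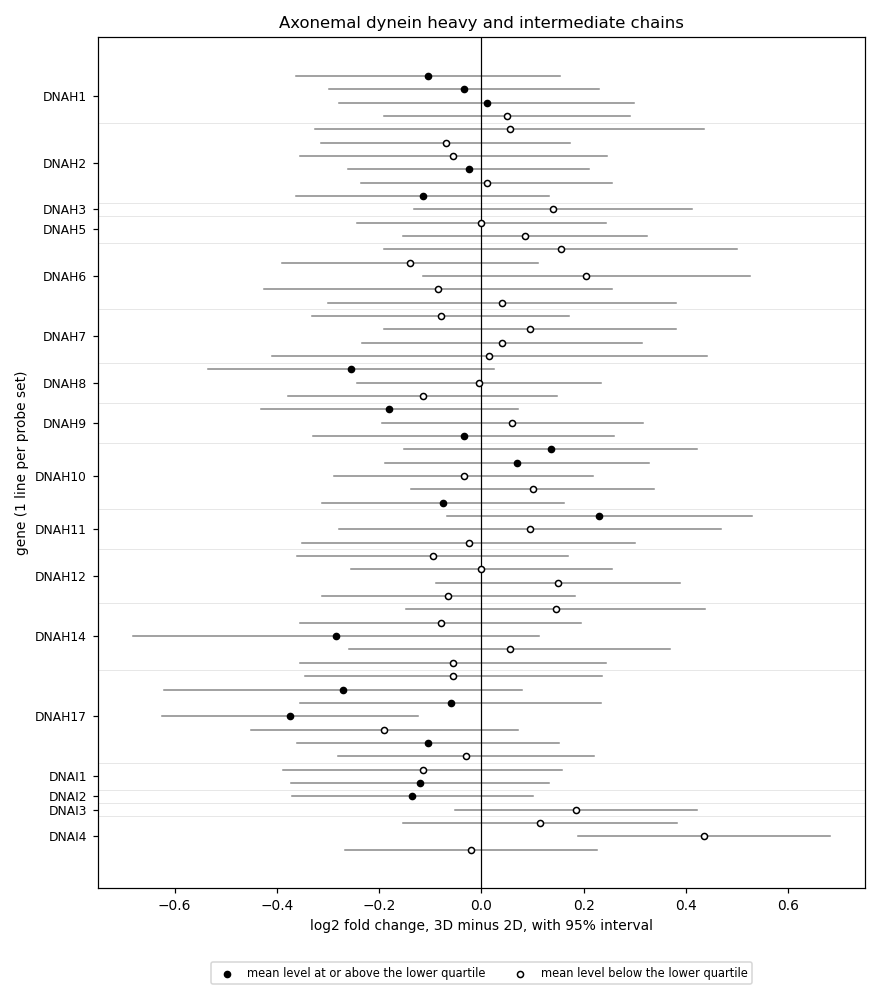
Log2 fold change (3D minus 2D, replicates 2 and 3, n = 2 arrays per group) of each dynein heavy chain (DNAH) and intermediate chain (DNAI) probe set, with limma's 95% interval as a line; open points have a mean level below the lower quartile of all probe sets. All points lie between -0.375 and 0.435, and none passed the threshold.

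The intermediate chains, which tether the motors, also had 0 past limma's threshold, over 7 probe sets of 4 genes (1 at an unadjusted p under 0.05). Over the whole array, 6.61% of probe sets passed. DNAI1 gave -0.12 and -0.115, DNAI2 -0.135 and DNAI3 0.185. For DNAI4, 1 of 3 probe sets was at 4.14 and 4.21 in 2D and 4.65 and 4.57 in 3D, a log2 fold change of 0.435 (limma adjusted p = 0.0622), and the other probe sets gave 0.115 and -0.02.

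Assembly factors fold dynein arms in the cytoplasm before they enter the cilium. Of the 8 such genes, CFAP300 rose and CFAP298 fell on 1 probe set, and the 6 DNAAF genes did not pass. By probe set, 2 of 17 were higher (3.65% of all were) and 1 was lower (2.96% of all). CFAP300, which binds the assembly factor DNAAF2, had levels of 7.04 and 7.08 in 2D and 7.90 and 7.81 in 3D on its probe set of highest mean, a 1.74-fold rise (log2 0.795, SE 0.10, limma adjusted p = 0.015). On a second probe set it went from 6.25 and 6.79 to 7.84 and 7.86, 2.51-fold (limma adjusted p = 0.0174). Both had the same sign in replicate 1, at 1.12 and 0.97. The third CFAP300 probe set, at levels of 3.90 to 3.95 on all 4 arrays, gave -0.01.

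CFAP298 is a cytoplasmic factor needed for dynein arms. It fell from 10.28 and 10.35 to 9.85 and 9.81 on 1 of 5 probe sets (log2 fold change -0.485, SE 0.0991, limma adjusted p = 0.045). Its probe set of highest mean gave -0.23 (limma adjusted p = 0.226), another gave 0.135, and the mean of the 5 did not pass (-0.185, limma adjusted p = 0.260). The replicate 1 difference was 0.05 on the probe set that passed, and the call was lost with trend and robust priors (limma adjusted p = 0.0693). Among the DNAAF genes, DNAAF5 gave -0.34 (limma adjusted p = 0.256) and DNAAF3 gave 0.30 (0.479). DNAAF1 ran from -0.29 to 0.19 over 4 probe sets.

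The nexin-dynein regulatory complex links neighbouring doublets and regulates the motors. DRC1, which lies at the base of that link, went from 6.20 and 6.44 in 2D to 7.77 and 7.35 in 3D on 1 probe set, a 2.36-fold rise (log2 1.24, SE 0.169, limma adjusted p = 0.0174). On the other 2 probe sets it rose 1.91-fold, from 6.99 and 6.68 to 7.92 and 7.61, and 1.51-fold, from 6.20 and 6.20 to 6.93 and 6.65. In replicate 1 all 3 were also higher in 3D, by 0.84, 1.21 and 2.26. DRC1 and CFAP20DC were the 2 genes with several probe sets that passed on all of them. The smallest of the DRC1 rises (limma adjusted p = 0.0495) was lost with median centring (0.0567) and with trend and robust priors (0.0501).

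DRC3, another subunit, was higher in 3D on all 4 probe sets, with log2 fold changes of 0.38 to 0.78, and passed on 1. There the levels were 5.96 and 6.33 in 2D and 6.96 and 6.89 in 3D (limma adjusted p = 0.0357), but replicate 1 gave -1.32. As the mean of the 4 probe sets DRC3 passed, at 0.609 (limma adjusted p = 0.0391). DRC7 did not pass, at -0.105. The complex had 4 of 8 probe sets higher and 0 lower (3.65% and 2.96% of all probe sets), of which 3 belong to DRC1, and by gene 1 of 3 was higher. Of further subunits outside the name rule, GAS8 (-0.155), TCTE1 (-0.125), IQCG (0.205) and IQCD (0.30) did not pass, and CCDC65, known as subunit DRC2, went from 6.71 and 6.75 to 7.91 and 7.50 (log2 fold change 0.975, limma adjusted p = 0.024). These subunits were looked up after the DRC values had been seen.

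**Figure D3:**
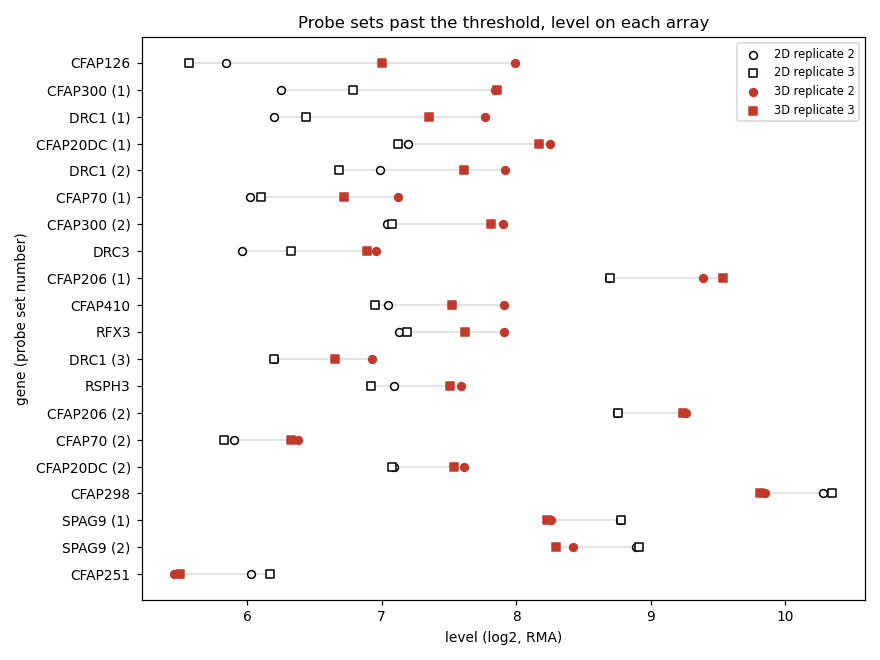
Level (log2, RMA) on each of the 4 arrays of replicates 2 and 3 for the 20 member probe sets past the threshold, ordered by log2 fold change; open marks are 2D and filled marks 3D, and a number in brackets tells the probe sets of 1 gene apart. The groups are apart in every row, with 3D to the right in 16 rows and to the left in the lowest 4.

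Radial spokes and the central pair carry signals to the dynein arms. Over 18 genes of these structures, by 49 probe sets, 5 probe sets were higher (3.65% of all were) and 1 was lower (2.96% of all). By gene 2 were higher and 1 was lower. CFAP206, needed for a radial spoke and its dynein, rose on 2 of 3 probe sets, from 8.69 and 8.70 to 9.39 and 9.54 on one (1.71-fold, limma adjusted p = 0.0174) and from 8.75 and 8.76 to 9.26 and 9.24 on the other (1.41-fold, 0.0406, or 0.0614 with trend and robust priors). The third gave 0.455 (limma adjusted p = 0.0541), and all 3 were higher in 3D in replicate 1, by 0.39 to 1.30. The 2D and 3D levels of CFAP206 did not overlap on any of its probe sets.

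CFAP70, an axonemal protein needed for normal beating, rose on 2 of 5 probe sets, from 6.02 and 6.10 to 7.12 and 6.72 (1.82-fold, limma adjusted p = 0.0321) and from 5.90 and 5.83 to 6.38 and 6.33 (1.40-fold, 0.0443). The other 3 gave 0.14 to 0.44. Replicate 1 gave 3.37 on the first and -1.57 on the second, the second turned sign in the comparison of all 6 arrays (-0.197), and the mean over the 5 probe sets did not pass (0.461, limma adjusted p = 0.0589). RSPH3, the spoke stalk protein that anchors protein kinase A, rose on 1 of 2 probe sets, from 7.09 and 6.92 to 7.59 and 7.51 (log2 fold change 0.545, limma adjusted p = 0.0442). Its probe set of highest mean gave 0.425 (limma adjusted p = 0.0677), and the mean of both passed at 0.485 (limma adjusted p = 0.0321).

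CFAP251, part of a calmodulin-binding complex near the spokes, was the member with the largest fall. On 1 of 3 probe sets it went from 6.03 and 6.17 in 2D to 5.46 and 5.50 in 3D (1.54-fold, limma adjusted p = 0.0292). Its 3D levels were below the lower quartile, and replicate 1 gave a difference of 1.95 in the other direction. With all 6 arrays, replicate 1 included, the value was 0.237, by construction the same with the replicate block, and 0.09 after quantile normalization. The mean of its 3 probe sets did not pass (-0.342, limma adjusted p = 0.106).

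The remaining spoke and central pair genes did not pass, in some cases with large values. SPAG6, a central pair protein, gave 0.385 on its probe set of highest mean (8.08 and 8.17 in 2D, 8.52 and 8.50 in 3D, limma adjusted p = 0.0796) and 0.885 on the second, where 3D replicate 2 stood at 7.81 and 3D replicate 3 at 6.98. RSPH14 showed a like gap between the 3D arrays, at 8.28 and 7.30 against 6.44 and 6.61 in 2D (log2 fold change 1.265, limma adjusted p = 0.0659), the largest value among members that did not pass. A second RSPH14 probe set gave 0.765 and the one of highest mean 0.115. RSPH9, a spoke head protein, had 6.60 and 5.58 in 3D against 5.44 and 5.29 in 2D on 1 of 3 probe sets. On each of these, 3D replicate 2 was the higher 3D array, as it was for the spike-in controls. The same order held for 73.4% of all probe sets called higher. A link between the spike-in levels and these values was not tested.

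For the spoke head genes RSPH1 (-0.145) and RSPH4A (0.205), and for SPAG16 (-0.26), SPAG17 (0.015) and SPEF2 (-0.025), which serve the central pair, the probe set of highest mean did not pass. All 4 SPEF2 probe sets were dim, with values of -0.22 to -0.025.

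Doublet inner proteins and tektins line the microtubule walls. CFAP126, also called Flattop and known for placing basal bodies in hair cells, had the largest difference of the set, from 5.84 and 5.57 in 2D to 7.99 and 7.00 in 3D (3.46-fold, log2 1.79, 95% interval 1.033 to 2.547, limma adjusted p = 0.0307). The 2 3D arrays differed by almost 1 log2 unit, and the 2D mean of 5.705 was close to the lower quartile. Replicate 1 gave 0.86. Without 3D replicate 2 the log2 fold change was 1.295. The other CFAP126 probe set, dim at 5.20 to 5.36, gave -0.08.

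The tektins TEKT1 to TEKT5 lay between -0.405 and 0.185 over 7 probe sets, and 0 passed limma's test (1 at an unadjusted p under 0.05). CFAP20, a doublet protein present in primary and motile cilia, gave -0.155 and -0.295 and did not pass. CFAP53, a protein known from left-right patterning, gave -0.27 (7.62 and 7.53 in 2D, 7.33 and 7.28 in 3D, limma adjusted p = 0.178) on the probe set of highest mean, against 3.06 in replicate 1, from a 2D level of 2.23 on that scale.

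Of the 13 other CFAP genes, CFAP20DC and CFAP410 rose (15.4%, against 4.17% of all genes). CFAP20DC, which is named for a domain like that of CFAP20, had the smallest adjusted p of the set. It went from 7.20 and 7.12 to 8.25 and 8.17, a 2.07-fold rise (log2 1.05, SE 0.102, limma adjusted p = 0.0092), and from 7.09 and 7.08 to 7.61 and 7.54 on its second probe set (1.40-fold, 0.0435). In replicate 1 the 2 probe sets differed by -0.58 and 0.46. CFAP410, a ciliary base protein linked to retinal dystrophy, went from 7.05 and 6.95 to 7.91 and 7.52 on its only probe set (1.64-fold, limma adjusted p = 0.0484), was lost with median centring (0.0549) and gave -0.12 in replicate 1. CFAP94 gave 0.505 and CFAP97D1 0.16, without passing, and the remaining 9 genes of this group lay between -0.22 and 0.125 over 19 probe sets, with 0 past limma's threshold (0 at an unadjusted p under 0.05).

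Among the SPAG genes with roles outside the axoneme, SPAG9 fell on 2 of 4 probe sets, from 8.89 and 8.91 to 8.42 and 8.30 (1.45-fold, limma adjusted p = 0.0378, 0.0516 with trend and robust priors) and from 8.77 and 8.78 to 8.26 and 8.23 (1.44-fold, 0.0345). Another SPAG9 probe set gave -0.46 (limma adjusted p = 0.0600), and all 4 were lower in 3D in replicate 1, at -0.73 to -0.21. SPAG4, a SUN domain protein of the nuclear envelope, lay just outside the threshold at 0.63, from 6.96 and 6.76 to 7.62 and 7.36 (limma adjusted p = 0.0502). SPAG5 (-0.03), SPAG7 (0.255) and SPAG11B (-0.075) did not pass.

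Replicate 1 gave the same sign for 14 of the 20 member probe sets past the threshold (70.0%, against 73.9% of all called probe sets). For the 16 that rose the count was 12, and for the 4 that fell it was 2, both of SPAG9. The replicate 1 differences were wide: 50 members were at least 2-fold higher (14.3% of all probe sets were) and 37 at least 2-fold lower (19.7% of all), with an SD of 1.48 over the members against 0.416 and 0.315 for the pairs numbered 2 and 3. Their median was -0.025, beside -0.14 over all probe sets. The highest were SPAG6 (4.46), RSPH14 (4.17), DNAH17 (3.71), RFX4 (3.53) and CFAP70 (3.37), and the lowest CFAP58 (-4.17), DNAH2 (-3.57), RFX4 (-3.02), DNAH8 (-2.98) and CFAP161 (-2.84). RFX4 stands at both ends with different probe sets. From 2D to 3D, DNAH17 went from 0.77 to 4.48 and CFAP70 from 1.77 to 5.14. CFAP58 went from 4.43 to 0.26 and DNAH2 from 5.00 to 1.43. The lower quartile of all probe sets was 3.52 on the 2D and 3.38 on the 3D array of replicate 1, so 1 level of each of these pairs was low.

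**Figure D4:**
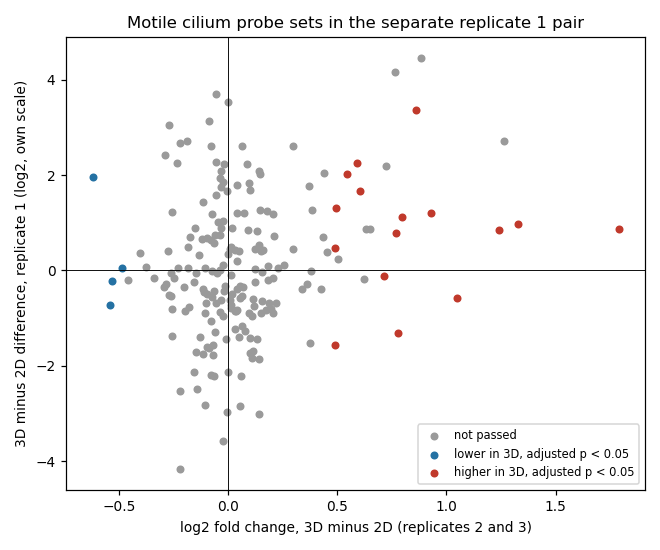
Replicate 1 difference (3D minus 2D, log2, on the scale of those 2 arrays) against the log2 fold change of replicates 2 and 3, 1 point per member probe set. Of the 16 probe sets that rose, 12 are above 0 on the vertical axis, and the grey points spread from -4.17 to 4.46 on that axis.

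Each call rests on 4 arrays. Leaving out any single one, of either group, left 0 members and 0 of all probe sets past the threshold, with 24 to 44 members at an unadjusted p under 0.05. Of the 16 probe sets that rose, 14 were higher on 3D replicate 2 than on 3D replicate 3, against 73.4% of all probe sets called higher.

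Motile cilium genes outside the name rule were read from a list of 69 symbols, of which 53 were measured. By gene, 11 were higher in 3D (4.17% of all genes were), 0 were lower (3.12% of all were) and 42 did not pass. The median of these genes was 0.12 on the log2 scale, beside -0.01 over all genes. DYNLRB2, a roadblock-type dynein light chain, went from 8.43 and 8.86 to 10.65 and 10.50 (3.81-fold, SE 0.162 on the log2 scale, limma adjusted p = 0.00689), with 2.96 in replicate 1. DNAJB13, a radial spoke cochaperone, went from 5.49 and 5.72 to 7.58 and 7.10 (3.33-fold, limma adjusted p = 0.0107), with 3.75 in replicate 1. The DYNLRB2 difference was larger than that of any member, and the DNAJB13 difference on this probe set lay below that of CFAP126 alone.

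NME5, a spoke protein of the nucleoside diphosphate kinase family, rose 2.37-fold (6.82 and 6.93 to 7.97 and 8.27), and ULK4, a pseudokinase needed for ciliary beating, rose 2.39-fold (7.89 and 7.86 to 9.25 and 9.01). Named after their values were seen, SPA17 rose 2.35-fold and the outer arm docking gene ODAD3 2.24-fold. DNAL4, CCDC65, EFCAB1, KIF27 and CAPS also rose, by 1.53-fold to 1.97-fold, though KIF27 differed by -1.88 in replicate 1. The docking gene ODAD1 (-0.15) and the ruler genes CCDC39 and CCDC40 (both -0.115) did not pass. E2F4, a cofactor of the multiciliated program with wide roles in the cell cycle, fell on 2 of 4 probe sets (-0.83 and -0.655), but not on the one of highest mean (-0.34, limma adjusted p = 0.107).

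**Figure D5:**
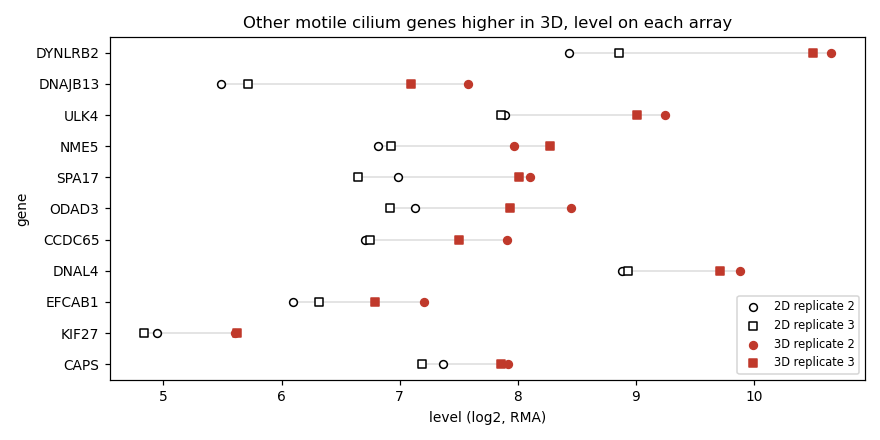
Level (log2, RMA) on each array of replicates 2 and 3 for the 11 listed genes outside the name rule that were higher in 3D, ordered by log2 fold change; open marks are 2D and filled marks 3D. All 3D marks lie to the right of the 2D marks, by the most for DYNLRB2 and DNAJB13.

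Of 12 genes listed as multiciliated cell markers 10 were measured, and 1 was higher in 3D (10.0%, against 4.17% of all genes). CAPS, a calcium-binding protein of ciliated cells, passed (0.61, limma adjusted p = 0.034), and 9 did not, among them TP73 (-0.15) and TPPP3 (0.13) beside FOXJ1, CCNO, DNAH9, DNAI1, RSPH1, TEKT1 and SPAG6. Intraflagellar transport and BBSome genes, which serve primary and motile cilia alike, had 8 of 33 genes higher (4.17% of all genes were) and 0 lower (3.12% of all). Their median was 0.315, beside -0.01 over all genes. WDR19 rose 1.74-fold, IFT140 2.04-fold, BBS9 1.63-fold and IFT172 2.61-fold. In replicate 1 these probe sets differed by 0.18, -0.06, 0.31 and 1.17. Further probe sets of IFT140 (0.72 and 0.665) and of BBS9 (0.72) did not pass, while those of IFT172 did. The difference between this list and the axoneme genes was not tested.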

How the data were processed

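Each array has 1 deposited log2 value for each probe set. RMA and limma are named, without versions, in the submitters' processing notes, so the values are taken as RMA values, while the log base rests on their range. The making of the replicate 1 columns is not described in the sources used here. Quantile-type normalization hides a shift shared by most genes. Probe sets of 1 gene, such as those with a shared root name, can share probes and are not independent.

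Of 43035 probe sets, 111 controls were left out, and 29254 have 1 gene symbol, 439 several and 13231 none. The Entrez identifiers of 200 members were found in the gene table of UU_Cfam_GSD_1.0, with 0 symbols changed. A gene stands by its probe set of highest mean over the 4 arrays. Differences were fitted with limma 3.58.1 (lmFit, then eBayes; R 4.3.3), two-sided, on replicates 2 and 3, with no filter, and tested on simulated data. The number of arrays limits the precision. Dim means a mean level below the lower quartile. Tables and plots used Python 3.11.15, pandas 2.3.3, numpy 2.4.6 and matplotlib 3.10.9. The members, lists and design were chosen with earlier results of these data known. Named were members past the threshold, preset regulators and axoneme genes, up to 4 genes per list by adjusted p, and the 5 highest and 5 lowest replicate 1 differences.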

Additional observations from a re-analysis of the deposited data

How the results depend on the processing

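The 20 member calls (10 by gene) came to 22 after quantile normalizing the 4 arrays again, 17 with median centring, 16 with trend and robust priors and 21 without dim probe sets, and to 10 genes when each gene's probe sets were averaged. With all 6 arrays, without a block, with the replicate block or quantile normalized, 0 members passed (0, 16 and 14 at an unadjusted p under 0.05). These fits passed 0 genes of either outside list, and 0, 0 and 2 of all probe sets against 2837. Without a block, the scale offset of replicate 1 enters the spread within groups, so that fit cannot decide whether the calls hold. The replicate block on the 4 arrays left 0 members and 0 of all probe sets (40 and 8325 at an unadjusted p under 0.05). It adds a term to a fit on the same few arrays. Deviations of same-numbered arrays from their group means correlated at 0.00127 over probe sets. That single value cannot tell whether same-numbered arrays were handled together. Leaving out each array gave 0 to 0 for every count, here with fewer arrays, and a member median of 0.005 to 0.02. That median was 0.058 with all 6 arrays quantile normalized, 0 with median centring and 0.05 without dim probe sets, against -0.016, -0.02 and -0.01 over all probe sets. CFAP251 turned sign with all 6 arrays (0.237, 0.237 with the replicate block, 0.09 quantile normalized). So did 1 CFAP70 probe set (-0.197, -0.197 and -0.02). Without quantile normalization these values average the same-numbered 3D minus 2D differences, so the block leaves them unchanged by construction. The replicate 1 differences were 1.95 and -1.57, opposite in sign to those of replicates 2 and 3. Replicate 1 differences of at least 2-fold fell from 87 to 40 of the members and from 14597 to 8975 of all probe sets without those dim on the 2 replicate 1 arrays, with fewer tested.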
